A study of Homo sapiens with 39 samples.

Results

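The 44 genes described here encode enzymes and adaptors of DNA excision, mismatch and end joining repair, and they were followed across all 13 groups of a bulk RNA sequencing series in C4-2B cells. They were taken by symbol from a list of base excision, single-strand break, mismatch, nucleotide excision and end joining genes, drawn up with earlier results of these data known, and all 44 were found among the 63187 genes of the count table. C4-2B is an established castration-resistant prostate cancer cell line derived from LNCaP, and it was treated with PARP inhibitors (PARPi), which block the enzymes that mark DNA strand breaks, and with androgen pathway inhibitors (ARPi). In the 5-day panel, 21 libraries covered DMSO vehicle, abiraterone acetate at 5 µM, enzalutamide at 20 µM, olaparib at 1 µM, talazoparib at 10 nM, abiraterone acetate with olaparib, and enzalutamide with talazoparib. In the time course, 18 libraries covered DMSO, olaparib at 1 µM and olaparib at 5 µM, each collected at day 1 and at day 5. Each group held 3 libraries of a single cell line, and the labels did not say whether these were separate cultures, so p-values measure the spread between these samples, which may be technical.

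Each library held between 26932205 and 49833473 counts. The luminal prostate genes KLK3, HOXB13, FOLH1, KRT8 and KRT18 were all present in the panel DMSO libraries, at mean levels from 252 to 1450 CPM (counts scaled to a common library size), while the basal genes KRT5 and TP63 had at most 2 counts in any library. KRT14, the other basal gene, had 8 to 23 counts in panel DMSO libraries, 0 to 10 with an ARPi alone or in combination and 26 to 63 with a PARPi alone. In the time course it had 9 to 27 counts with DMSO, 11 to 20 with olaparib at day 1, and 43 to 47 and 45 to 68 with olaparib 1 and 5 µM at day 5. The leukocyte gene PTPRC had at most 4 counts per library without an ARPi and 9 to 47 with one, and the fibroblast gene COL3A1 had 1 to 3 counts in panel DMSO libraries and 11 to 29 with an ARPi (log2 fold changes from 2.65 to 3.55). At day 5 of the time course COL3A1 had 5 to 6 counts with DMSO and 10 to 13 with olaparib 5 µM (log2 fold change 1.33, adjusted p = 0.00619). The fibroblast gene COL1A1 and the endothelial gene VWF had between 266 and 1032 counts in all libraries, with COL1A1 higher in all 6 panel treatments (0.25 to 0.86), with olaparib 1 and 5 µM at day 1 (0.25 and 0.39) and with 1 µM at day 5 (0.19). VWF was higher with abiraterone, alone and with olaparib (0.45 and 0.46), and at day 1 of olaparib at 1 and 5 µM (0.26 and 0.40). It was lower with enzalutamide (-0.35), talazoparib (-0.20) and olaparib 5 µM at day 5 (-0.38), and the endothelial gene PECAM1 had at most 4 counts. The part of these counts in the results below was not tested. The androgen-responsive gene KLK3 fell with abiraterone and enzalutamide (log2 fold changes -1.58 and -2.25), and the p53 target CDKN1A rose with olaparib and talazoparib (2.18 and 1.98). All log2 fold changes, standard errors (SE) and adjusted p-values came from edgeR's quasi-likelihood test, with Benjamini-Hochberg adjustment over all genes tested and a threshold of 0.05. In bulk RNA, fewer cells of a kind and less RNA per cell cannot be told apart.

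Base excision repair removes single damaged bases. A DNA glycosylase cuts out the base, the endonuclease APEX1 opens the strand, and a polymerase, a flap nuclease and a ligase close the gap, with XRCC1 and LIG3 acting also at single-strand breaks. Mismatch repair corrects replication errors, and nucleotide excision repair removes bulky lesions. Double-strand ends are joined by non-homologous end joining, in which the Ku proteins XRCC5 and XRCC6 hold the end for the kinase PRKDC and the ligase LIG4, or by POLQ, which joins ends through short stretches of matching sequence. TP53BP1, RIF1 and the shieldin proteins protect ends from resection, and their loss is a known route to PARPi resistance in BRCA1-deficient cells.

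A set of 3 short sequences that cell-cycle factors are known to read was looked for in RefSeq promoter windows (GRCh38.p14, 250 bases before to 50 after the transcript start, both strands) because several of the genes that fell most with olaparib act during replication. These motifs were chosen after the values were seen. TTCCCGC and TTGGCGC are forms of the E2F site and TTTGAA is the cell cycle genes homology region. A window was found for 37 of the 44 genes, and 8 of them (21.6%) held each motif. TTCCCGC was held by 7.82% of the 27305 genes with a window, TTGGCGC by 3.66% and TTTGAA by 18.2%. The 120 bases before the start are shown for NEIL3, EXO1, FEN1 and MSH6, 4 of the 6 genes that fell by more than 1 log2 unit with olaparib at 5 µM by day 5, and for LIG1, which rose at day 1 and fell at day 5. They are written 5′ to 3′ on the strand of the gene, with any of the 3 motifs, in either orientation, in capitals. They lie at chr4:177309754-177309873 (NEIL3, plus strand), chr1:241848084-241848203 (EXO1, plus), chr11:61792791-61792910 (FEN1, plus), chr2:47783833-47783952 (MSH6, plus) and chr19:48170345-48170464 (LIG1, minus).
NEIL3: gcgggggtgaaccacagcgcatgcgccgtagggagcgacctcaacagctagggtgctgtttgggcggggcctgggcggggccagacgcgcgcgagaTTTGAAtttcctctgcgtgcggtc
EXO1: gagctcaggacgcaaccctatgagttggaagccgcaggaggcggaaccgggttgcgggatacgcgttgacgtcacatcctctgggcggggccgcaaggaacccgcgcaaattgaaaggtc
FEN1: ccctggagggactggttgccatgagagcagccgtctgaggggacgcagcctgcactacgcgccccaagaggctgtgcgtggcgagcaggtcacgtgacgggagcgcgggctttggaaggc
MSH6: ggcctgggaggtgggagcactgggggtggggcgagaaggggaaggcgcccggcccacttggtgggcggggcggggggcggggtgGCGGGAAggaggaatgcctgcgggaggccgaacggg
LIG1: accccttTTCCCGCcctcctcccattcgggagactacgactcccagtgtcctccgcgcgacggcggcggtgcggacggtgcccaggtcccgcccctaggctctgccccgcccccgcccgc

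TTTGAA began 24 bases before the start of NEIL3. MSH6 had 4 windows with different starts, and the one shown was chosen because its printed bases held a motif. In it, the reverse complement of TTCCCGC began 36 bases before the start. In the most upstream MSH6 window the only match was TTCCCGC, which began 4 bases after the start. TTCCCGC began 113 bases before the start of LIG1. EXO1 and FEN1 held none of the 3 motifs anywhere in their windows, which says only that these letters are not there. Of the other genes that fell most, POLQ held the reverse complement of TTTGAA 230 bases before its start and, after the start, TTTGAA and the reverse complement of TTCCCGC, while RIF1 held TTTGAA 204 bases before its start. Among all windows of the 44 genes, the only matches that overlapped were both orientations of TTGGCGC in UNG.

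The genes differed widely in level before treatment. Per kilobase of the canonical transcript, XRCC6 was highest in panel DMSO libraries at 319 ± 7.32 CPM per kb (SD, n = 3), followed by APEX1 at 156.5 ± 0.787 and XRCC5 at 149 ± 3.47. FEN1, MSH6, EXO1 and POLQ, among the genes that fell most with olaparib 5 µM at day 5, stood at 51.0, 19.2, 8.79 and 7.44 CPM per kb. NEIL1, a glycosylase for oxidised bases, was next to lowest at 0.872 ± 0.12, and APLF, an end joining adaptor, was lowest at 0.0348 ± 0.00713 with 3, 5 and 6 counts per library. APLF was too low to be tested in the time course, which left 43 genes there, while all 44 were tested in the panel.

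Olaparib at 5 µM for 5 days gave the widest changes. Of the 43 genes tested, 28 fell (65.1%, against 33.9% of all 18502 genes tested) and 8 rose (18.6%, against 34.4%), and the median log2 fold change was -0.22. The falls were led by NEIL3, EXO1, POLQ and FEN1, which act on replicating or single-stranded DNA, and then by MSH6 and RIF1. These 6 fell by more than 1 log2 unit (14.0% of the genes tested here, against 7.62% of all genes tested), and 0 rose by that much, against 8.80% of all genes tested. All 15 genes of a proliferation list (MKI67, TOP2A, CDK1, MCM2 and others) also fell in the same libraries, with a median log2 fold change of -2.22, and their part in these falls was not tested. With each of the 6 libraries left out in turn, 32 of the 36 calls were kept in every fit, the exceptions being PMS1, APTX, ERCC4 and XPA.

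**Figure D1:**
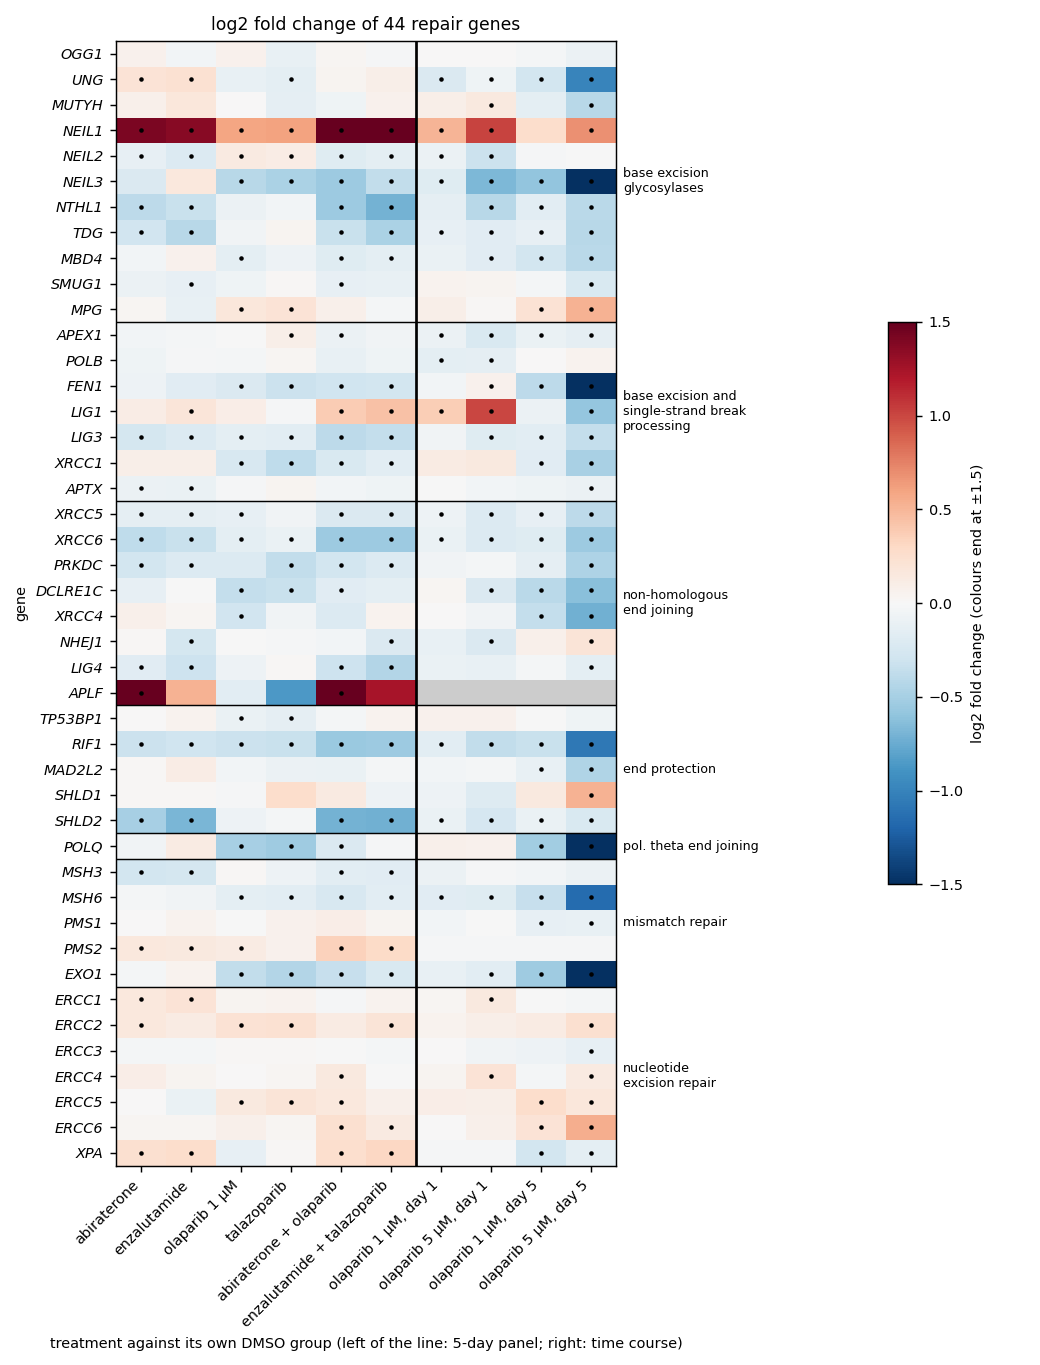
Log2 fold change of each of the 44 genes (rows, grouped by pathway) in each of the 10 comparisons of a treatment with its own DMSO group (columns), with red for higher, blue for lower, grey for not tested and a dot where the adjusted p was below 0.05. The column of olaparib 5 µM at day 5 holds 28 falls and 8 rises. The NEIL1 row is red in all 10 columns, without a dot for olaparib 1 µM at day 5 of the time course.

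Among the 11 glycosylases, 7 fell and 2 rose with olaparib 5 µM at day 5, with a median log2 fold change of -0.40. Over all genes tested in this comparison, 33.9% fell and 34.4% rose. NEIL3, which opens oxidised bases in single-stranded DNA and at crosslinks, stood at 12.6, 13.1 and 12.8 CPM in the 3 DMSO libraries of day 5 and at 1.46, 2.08 and 1.94 CPM with olaparib 5 µM. The groups did not overlap, and the log2 fold change was -2.81 (SE 0.09, adjusted p = 1.24e-25). With olaparib 1 µM it stood between them, at 7.96, 8.73 and 8.74 CPM (log2 fold change -0.60, SE 0.07, adjusted p = 3.38e-09). UNG, which removes uracil, stood at 106, 102 and 102 CPM with DMSO and 52.4, 53.9 and 49.99 CPM with olaparib 5 µM (log2 fold change -0.99, SE 0.03, adjusted p = 2.99e-26). TDG and MBD4, which remove thymine and uracil opposite guanine, and NTHL1 and MUTYH, which act on oxidised pyrimidines and on adenine opposite oxidised guanine, each fell by about 0.4 (log2 fold changes of -0.41, -0.40, -0.40 and -0.42). SMUG1, a further uracil glycosylase, had a log2 fold change of -0.23 (SE 0.05). UNG, TDG and SMUG1 have processed pseudogene copies and MUTYH shares exon bases with another gene, so their counts are less certain.

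The 2 glycosylases that rose were NEIL1 and MPG, the latter a remover of alkylated bases. NEIL1 stood at 2.89, 2.52 and 2.24 CPM with DMSO at day 5 and at 4.31, 3.93 and 4.11 CPM with olaparib 5 µM (log2 fold change 0.69, SE 0.12, adjusted p = 3.89e-06). Its treated libraries were all above its DMSO libraries, though all values were low. MPG rose by 0.52 on the log2 scale (SE 0.05, adjusted p = 1.42e-11). OGG1, the glycosylase for oxidised guanine, did not pass the test in any of the 10 comparisons with DMSO, with log2 fold changes from -0.11 to 0.07.

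Of the 7 genes of base excision and single-strand break processing, 6 fell (85.7%, against 33.9% of all genes tested). The median log2 fold change of the 7 was -0.36. FEN1, the nuclease that trims flaps during gap filling and lagging strand synthesis, stood at 145, 146 and 145 CPM with DMSO at day 5, at 110, 112 and 111 CPM with olaparib 1 µM, and at 41.0, 38.5 and 41.5 CPM with 5 µM. The 3 groups did not overlap and were ordered by dose. The log2 fold change at 5 µM was -1.85 (SE 0.03, adjusted p = 7.88e-36), with the reservation that FEN1 shares exon bases with FADS2 and has a processed copy. XRCC1, the scaffold of single-strand break repair, and its partner LIG3 fell less, with log2 fold changes of -0.49 (SE 0.07) and -0.36 (SE 0.04). POLB, the gap-filling polymerase of base excision repair, had a log2 fold change of 0.05 (SE 0.05, adjusted p = 0.365), and APEX1 one of -0.14 (SE 0.02, adjusted p = 8.14e-07). APTX, which clears failed ligation ends, had one of -0.09 (SE 0.03, adjusted p = 0.0138), a call lost without DMSO library 1 or 2 of day 5 or olaparib 5 µM library 2 or 3 (-0.08 to -0.06). XRCC1 and APTX share exon bases with other annotated genes.

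All 7 non-homologous end joining genes that were tested passed the threshold, 6 lower and 1 higher. Over all genes tested, 33.9% were lower and 34.4% higher. XRCC4, the partner of LIG4, stood at 7.34, 6.99 and 6.56 CPM with DMSO at day 5 and 4.31, 4.38 and 3.97 CPM with olaparib 5 µM (log2 fold change -0.72, SE 0.09, adjusted p = 3.88e-09). DCLRE1C, the nuclease that opens hairpin ends, fell by 0.62 on the log2 scale. XRCC6, XRCC5 and PRKDC, the end-binding kinase complex, had log2 fold changes of -0.54 (SE 0.02), -0.39 (SE 0.02) and -0.46 (SE 0.04). XRCC6 has processed pseudogene copies and DCLRE1C a duplicated one. NHEJ1, which bridges the ends with XRCC4, was the member that rose, by 0.19 (SE 0.06, adjusted p = 0.00394). That call was lost with total-count scaling (0.11), and NHEJ1 shares exon bases with another annotated gene.

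**Figure D2:**
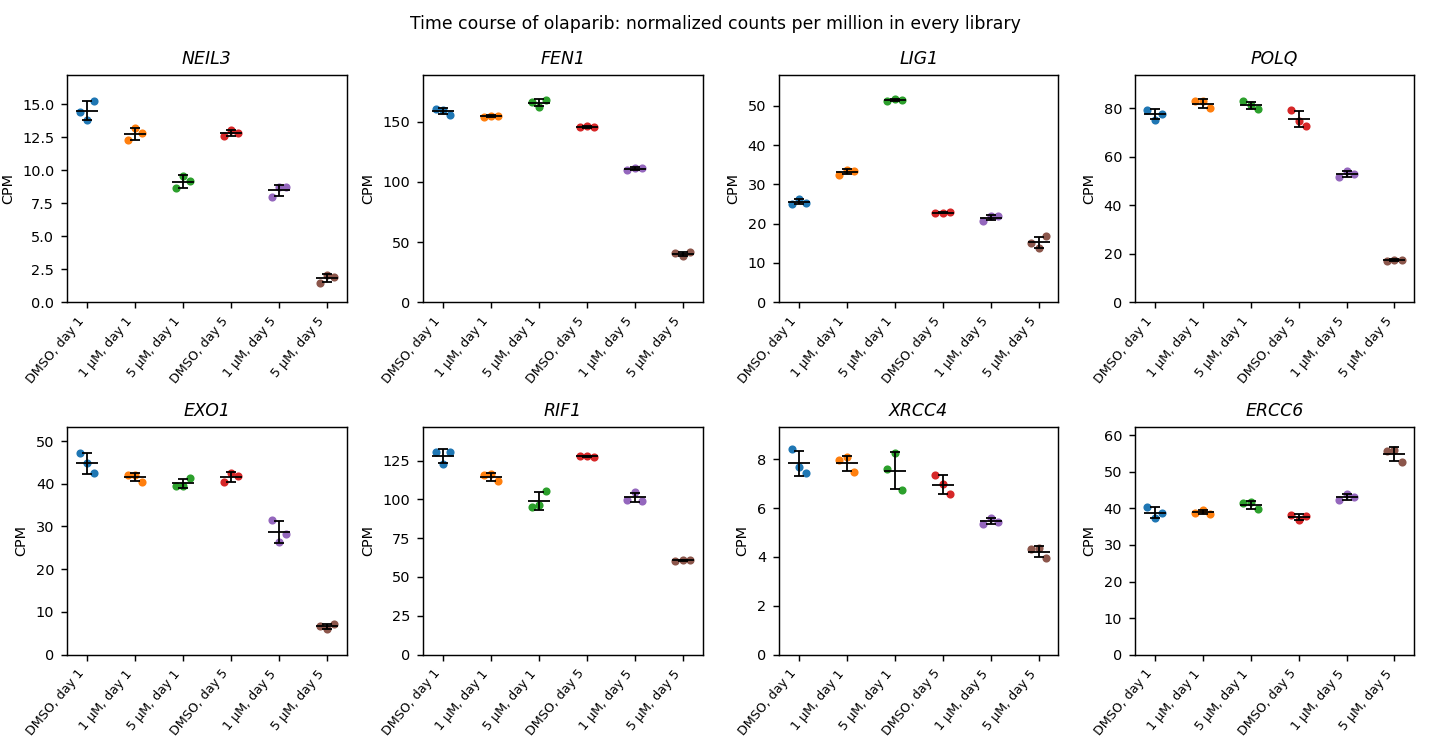
CPM in each of the 3 libraries (points), with mean and SD (black), for 8 genes in the 6 time course groups; each vertical axis starts at 0. NEIL3, FEN1, POLQ, EXO1 and RIF1 step down with dose at day 5, while LIG1 steps up with dose at day 1 (to 51.3, 51.8 and 51.4 CPM) and ERCC6 steps up at day 5.

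The end protection genes moved unevenly. RIF1, which binds TP53BP1 at breaks and also times replication origins, stood at 128, 128 and 127 CPM with DMSO at day 5, at 99.9, 105 and 99.3 CPM with olaparib 1 µM and at 60.6, 60.7 and 61.0 CPM with 5 µM. The groups did not overlap, and the log2 fold change at 5 µM was -1.07 (SE 0.03, adjusted p = 3.51e-26). MAD2L2, the shieldin and polymerase zeta subunit, fell by 0.45 on the log2 scale and SHLD2 fell by 0.22, with SHLD2 counts made less certain by 3 pseudogene copies. SHLD1 rose by 0.52 (SE 0.13, adjusted p = 0.000669) from a low mean of 2.20 CPM with DMSO at day 5. TP53BP1 had a log2 fold change of -0.06 (SE 0.03, adjusted p = 0.0675).

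POLQ stood at 79.5, 74.9 and 72.7 CPM with DMSO at day 5, 51.8, 54.1 and 52.9 CPM with olaparib 1 µM, and 17.2, 17.5 and 17.6 CPM with 5 µM. Its 3 groups did not overlap. The log2 fold changes were -0.52 (SE 0.03, adjusted p = 2.72e-16) and -2.12 (SE 0.04, adjusted p = 6.07e-34).

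Of the 5 mismatch repair genes, EXO1, MSH6 and PMS1 passed the test (60.0%), all lower. Over all genes tested, 33.9% were lower and 34.4% higher. PMS1 had a log2 fold change of -0.11 (SE 0.05), and its call was lost in 6 of 13 alternative fits, among them those without DMSO library 1 or 2 of day 5 and without olaparib 5 µM library 2 (-0.06). EXO1, the exonuclease that removes the strand carrying the error and that also resects breaks, stood at 40.4, 42.6 and 41.8 CPM with DMSO at day 5, 31.5, 26.5 and 28.2 CPM with olaparib 1 µM and 6.61, 6.06 and 7.09 CPM with 5 µM. The log2 fold change at 5 µM was -2.66 (SE 0.06, adjusted p = 5.63e-26). MSH6, a mismatch recognition subunit, stood at 103, 101 and 99.4 CPM with DMSO and 45.4, 46.3 and 44.98 CPM with 5 µM (log2 fold change -1.15, SE 0.03, adjusted p = 7.05e-28). MSH3, the alternative recognition subunit for larger loops, had a log2 fold change of -0.09 (SE 0.05, adjusted p = 0.102), and PMS2, an endonuclease subunit, one of -0.02 (SE 0.04, adjusted p = 0.72). PMS2 has many pseudogene copies, so its count is uncertain.

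Nucleotide excision repair was the group with a positive median (0.13): 4 of its 7 genes rose and 2 fell. Over all genes tested, 34.4% rose and 33.9% fell. In a list of 20 further genes of this pathway the direction was the other, with 5 higher, 12 lower and a median of -0.26. ERCC6, which starts repair at stalled RNA polymerase, stood at 38.2, 36.7 and 37.9 CPM with DMSO at day 5, 42.5, 44.1 and 43.2 CPM with olaparib 1 µM and 55.7, 56.1 and 52.6 CPM with 5 µM. Its groups did not overlap and rose with dose (log2 fold change at 5 µM 0.54, SE 0.03, adjusted p = 9.65e-17). ERCC2, a helicase of TFIIH, ERCC5, the nuclease that cuts on one side of the lesion, and ERCC4, the nuclease that cuts on the other, had log2 fold changes of 0.24, 0.17 and 0.13. ERCC5 shares exons with a readthrough gene, BIVM-ERCC5. ERCC3, the other TFIIH helicase, and XPA, which verifies the lesion, had log2 fold changes of -0.12 and -0.14. The ERCC4 call was lost without DMSO library 1 of day 5 (0.11) and with total-count scaling (0.05), and the XPA call without that DMSO library (-0.13) or olaparib 5 µM library 2 (-0.12).

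**Figure D3:**
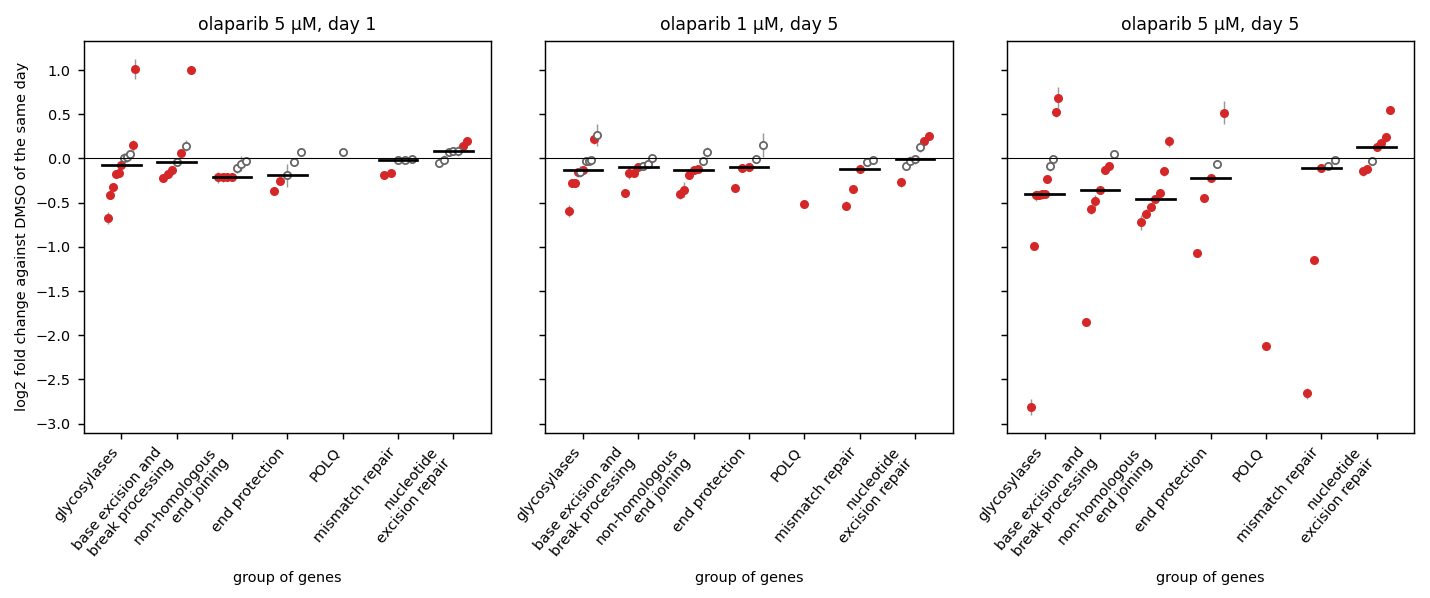
Log2 fold change against DMSO of the same day (vertical axis, bars show SE) of the 43 genes tested, by pathway group, for olaparib 5 µM at day 1, 1 µM at day 5 and 5 µM at day 5; filled red points passed the threshold, open points did not, and black lines are group medians. At 5 µM and day 5 the medians of the groups of more than 1 gene run from -0.46 in non-homologous end joining to 0.13 in nucleotide excision repair, and POLQ, a group of its own, lies at -2.12.

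The dose was compared directly at day 5. Between 5 µM and 1 µM, 28 of the 43 genes differed (65.1%, against 53.6% of all genes tested), 22 of them lower and 6 higher at 5 µM. The largest differences were in NEIL3 (log2 difference -2.21, SE 0.10), EXO1 (-2.12, SE 0.07), POLQ (-1.60, SE 0.04) and FEN1 (-1.46, SE 0.03). The higher ones were NEIL1, SHLD1, ERCC6, MPG, ERCC4 and XPA, by 0.42 to 0.13. XPA was below DMSO at both doses, with log2 fold changes of -0.27 at 1 µM and -0.14 at 5 µM. At 1 µM, 22 genes were below DMSO at day 5 (51.2%, against 22.9% of all genes tested) and 3 above it (6.98%, against 23.4%). The proliferation list fell there too, in 15 of 15 genes with a median log2 fold change of -0.50.

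The pattern was different at day 1. With olaparib 1 µM, 11 of the 43 genes fell (25.6%, against 9.52%) and 2 rose (4.65%, against 6.30%). With 5 µM, 17 fell (39.5%, against 23.4%) and 6 rose (14.0%, against 21.6%). POLQ, which had dropped most sharply by day 5 together with NEIL3 and EXO1, stood at 79.6, 75.4 and 77.6 CPM with DMSO at day 1 and 82.9, 81.3 and 79.8 CPM with 5 µM, and did not pass the test (log2 fold change 0.07, SE 0.03, adjusted p = 0.0593). FEN1 was slightly higher (0.06, SE 0.03, adjusted p = 0.042), a call that was lost when single libraries were left out. NEIL3 was already lower at day 1, at 14.4, 13.8 and 15.3 CPM with DMSO and 8.63, 9.60 and 9.20 CPM with 5 µM (log2 fold change -0.67, SE 0.07, adjusted p = 1.7e-10). Of the proliferation list at day 1, 10 of 15 genes fell and 1 rose with 5 µM (median -0.12). With 1 µM, 8 of 15 fell and 2 rose (median -0.099).

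LIG1, the ligase that seals Okazaki fragments and long-patch repair, changed direction between the days. At day 1 it stood at 25.1, 26.4 and 25.4 CPM with DMSO, 32.5, 33.6 and 33.5 CPM with olaparib 1 µM and 51.3, 51.8 and 51.4 CPM with 5 µM, in 3 groups that did not overlap (log2 fold change at 5 µM 1.01, SE 0.04, adjusted p = 1.43e-21). At day 5 it stood at 22.7, 22.7 and 23.0 CPM with DMSO and 15.2, 13.9 and 16.8 CPM with 5 µM (log2 fold change -0.58, SE 0.05, adjusted p = 6.65e-13). NEIL1 rose at day 1 as well, from 2.53, 2.26 and 2.52 CPM to 4.89, 5.44 and 4.42 CPM (log2 fold change 1.01, SE 0.12, adjusted p = 5.08e-09). The 2 days had separate DMSO libraries. At 5 µM, 14 genes fell on both days and 2 rose on both, while 4 (MUTYH, FEN1, LIG1 and NHEJ1) passed the test in opposite directions. Together, 20 of the 43 genes passed on both days (46.5%, against 36.8% of all genes tested). The day 1 calls of MUTYH (0.15) and FEN1 (0.06) were each lost in 7 of 13 alternative fits. The share in the same direction among those past the threshold on both days was 16 of 20, against 79.5% over all genes. That overlap is 16 of the 23 genes that passed at day 1 and 16 of the 36 that passed at day 5.

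The change of the olaparib effect between day 1 and day 5 was tested as an interaction. At 5 µM it passed the threshold for 29 of the 43 genes (67.4%, against 54.9% of all genes tested), and at 1 µM for 16 (37.2%, against 29.8%). EXO1, POLQ, NEIL3, FEN1 and LIG1 had the largest differences at 5 µM, with log2 values from -2.50 to -1.58, where a negative value means a lower effect at day 5. POLQ had the largest at 1 µM (-0.60, SE 0.04, adjusted p = 1.5e-13). SHLD1, MPG, ERCC6 and NHEJ1 had the largest positive values at 5 µM, at 0.71, 0.51, 0.46 and 0.41, with SHLD1 low in level. In DMSO itself, 12 of the 43 genes differed between day 5 and day 1 (27.9%, against 24.5% of all genes tested), with log2 differences from -0.22 in PMS1, a mismatch repair subunit, to 0.21 in XPA. The proliferation list was lower at day 5 in DMSO for 14 of 15 genes (median -0.15), and its interaction at 5 µM was negative for 15 of 15 (median -1.96), a part in these differences that was not tested.

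Olaparib at 1 µM for 5 days was measured in both experiments with separate DMSO libraries. In the panel, 14 of the 44 genes fell (31.8%, against 16.0% of the 18625 genes tested) and 6 rose (13.6%, against 19.6%). Over the 43 genes tested in both, the log2 fold changes of the 2 experiments had a Pearson r of 0.865 and a Spearman rho of 0.853, against 0.494 and 0.675 over the 17960 genes tested in both. Genes are not independent replicates, so no p is given. There were 15 genes past the threshold in both experiments (34.9%, against 30.2% of all genes tested in both), all in the same direction, as were 99.7% of the genes past it in both over the whole table. The sign of the change was shared by 72.1% of the 43 genes, called or not, against 78.2% of all genes. They were 15 of the 20 that passed in the panel and 15 of the 25 that passed in the time course. POLQ fell by 0.50 and 0.52 on the log2 scale, NEIL3 by 0.42 and 0.60, EXO1 by 0.37 and 0.53, DCLRE1C by 0.35 and 0.40 and RIF1 by 0.32 and 0.33. MPG and ERCC5 passed the test as higher in both, but the panel calls (0.17 and 0.15) were lost in 4 and 3 of 13 alternative fits. Both were lost without olaparib library A (0.14 and 0.13) or B (0.16 and 0.10) and with total-count scaling (0.13 and 0.11), and MPG also without DMSO library C (0.16). NEIL1 rose in the panel (0.59) but did not pass in the time course, where its olaparib 1 µM libraries overlapped DMSO.

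**Figure D4:**
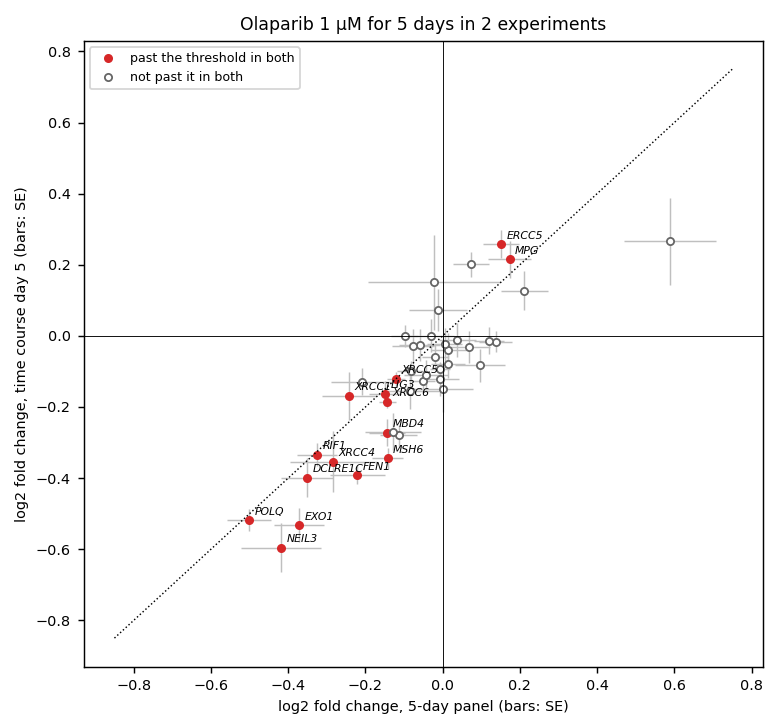
Log2 fold change with olaparib 1 µM at day 5 in the 5-day panel (horizontal axis) and in the time course (vertical axis) for the 43 genes tested in both, with SE bars and a dotted line of equality; the 15 filled points passed the threshold in both experiments. POLQ, NEIL3 and EXO1 are lowest in both.

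In the panel, the 6 treatments were compared with the same 3 DMSO libraries, so the comparisons below are not independent of each other. Talazoparib gave 13 falls (29.5%, against 15.4%) and 6 rises (13.6%, against 18.4%). All 15 proliferation genes fell with olaparib (median -0.34) and with talazoparib (median -0.42). With abiraterone 12 of the 44 genes fell (27.3%, against 27.1%) and 7 rose (15.9%, against 25.8%), and with enzalutamide 14 fell (31.8%, against 26.3%) and 6 rose (13.6%, against 27.0%), shares of falls that are near the background. The proliferation list was split under the ARPi, with 3 genes higher and 5 lower for abiraterone and 4 higher and 3 lower for enzalutamide. The olaparib count dropped from 20 to 13 without DMSO library C, the library in which POLQ, EXO1 and RIF1 were highest.

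POLQ and EXO1 were lower with either PARPi. POLQ stood at 58.1, 63.5 and 73.7 CPM with DMSO, 45.6, 46.3 and 46.6 CPM with olaparib and 47.1, 43.1 and 45.2 CPM with talazoparib. All 6 PARPi libraries were below all 3 DMSO libraries, whose own spread was wide (log2 fold changes -0.50 and -0.53, SE 0.06, adjusted p = 1.24e-07 and 5.05e-08). With abiraterone it stood at 61.6, 64.9 and 62.6 CPM and with enzalutamide at 68.7, 71.5 and 73.0 CPM, and neither passed the test (adjusted p = 0.467 and 0.0641). EXO1 stood at 26.4, 31.2 and 33.4 CPM with DMSO, 23.2, 24.2 and 23.3 CPM with olaparib and 24.0, 20.3 and 23.0 CPM with talazoparib (log2 fold changes -0.37 and -0.44). NEIL3, DCLRE1C, XRCC1 and FEN1 fell with olaparib and with talazoparib, with log2 fold changes between -0.22 and -0.48. The FEN1 call with olaparib (-0.22) was lost in 4 of 13 alternative fits, those without DMSO library C (-0.13), olaparib library A (-0.22) or B (-0.23), and with only the groups compared (-0.24), the last of which also ended its talazoparib call (-0.33). The other 3 genes kept both calls in all 13 fits.

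SHLD2 and XRCC6 were lowest where an ARPi was present. SHLD2, the shieldin subunit that binds single-stranded DNA, stood at 73.6, 71.9 and 76.2 CPM with DMSO, 53.4, 51.0 and 52.4 CPM with abiraterone and 46.6, 47.0 and 44.7 CPM with enzalutamide (log2 fold changes -0.50 and -0.68, SE 0.04, adjusted p = 3.86e-13 and 7.9e-17). With olaparib it stood at 66.8, 73.1 and 69.9 CPM and with talazoparib at 73.4, 69.1 and 75.6 CPM, overlapping DMSO in both cases. XRCC6 stood at 670, 695 and 666 CPM with DMSO, 531, 513 and 520 CPM with abiraterone and 528, 548 and 532 CPM with enzalutamide (log2 fold changes -0.38 and -0.34, SE 0.02). Its PARPi libraries lay between these and DMSO, at 603, 620 and 617 CPM and at 635, 624 and 644 CPM (log2 fold changes -0.14 and -0.09). TDG, LIG4 and MSH3 had log2 fold changes of -0.29, -0.17 and -0.27 with abiraterone and of -0.41, -0.31 and -0.26 with enzalutamide, and none of these 3 passed the test with olaparib or talazoparib. The LIG4 call with abiraterone was lost without abiraterone library B (-0.13) or C (-0.14) and with total-count scaling (-0.10).

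NTHL1 and LIG3 followed the ARPi in part. NTHL1 stood at 15.6, 14.2 and 16.0 CPM with DMSO, 12.9, 10.8 and 11.1 CPM with abiraterone and 12.6, 11.7 and 12.3 CPM with enzalutamide, while the olaparib and talazoparib libraries, from 13.1 to 15.6 CPM, overlapped DMSO. LIG3, the ligase of single-strand break repair, stood at 92.4, 90.5 and 105 CPM with DMSO, between 75.5 and 84.3 CPM with an ARPi alone, between 84.4 and 89.8 CPM with a PARPi alone and between 71.2 and 76.6 CPM with the combinations. Every LIG3 treatment group was below every DMSO library, with log2 fold changes from -0.15 to -0.39. The olaparib and talazoparib calls were lost without DMSO library C (-0.08 each). NEIL2, a glycosylase for oxidised bases in bubbles of DNA, moved in opposite directions, from 51.6, 52.1 and 51.8 CPM with DMSO to 48.9, 46.0 and 47.6 CPM with abiraterone and to 59.8, 53.9 and 57.3 CPM with olaparib (log2 fold changes -0.13 and 0.14, adjusted p = 0.0167 and 0.0116). The abiraterone call was lost without abiraterone library B, the olaparib call without olaparib library A or C, and both with total-count scaling. RIF1 fell by a similar amount with each single agent, from 111, 120 and 133 CPM with DMSO to between 91.0 and 105 CPM (log2 fold changes from -0.30 to -0.34).

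NEIL1 rose with all 6 panel treatments, though it did not pass the test with olaparib 1 µM at day 5 of the time course. It stood at 3.74, 2.88 and 3.09 CPM with DMSO, 8.16, 8.77 and 8.78 CPM with abiraterone, 8.04, 7.81 and 8.98 CPM with enzalutamide, 4.61, 5.39 and 4.53 CPM with olaparib and 5.57, 4.76 and 4.39 CPM with talazoparib. With abiraterone and olaparib together it stood at 11.4, 12.5 and 11.7 CPM, and with enzalutamide and talazoparib at 11.7, 14.4 and 14.2 CPM. No treated library overlapped DMSO, and both combinations were above each single agent. The log2 fold changes were 1.41, 1.36, 0.59 and 0.60 for the single agents in that order and 1.88 and 2.05 for the combinations (SE from 0.11 to 0.12, largest adjusted p = 0.000151).

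XPA and PMS2 rose with the ARPi. XPA stood at 15.3, 16.3 and 14.7 CPM with DMSO, 17.8, 19.3 and 17.8 CPM with abiraterone and 19.1, 19.9 and 16.7 CPM with enzalutamide (log2 fold changes 0.24 and 0.26, SE 0.07, adjusted p = 0.00394 and 0.00165). PMS2, again with uncertain counts, stood at 48.3, 49.6 and 44.95 CPM with DMSO, 52.8, 54.6 and 52.1 CPM with abiraterone and 53.6, 52.4 and 52.4 CPM with enzalutamide (log2 fold changes 0.16 and 0.15). UNG and ERCC1, the partner of the ERCC4 nuclease, rose by 0.20 and 0.16 with abiraterone and by 0.23 and 0.20 with enzalutamide. APLF had only 11, 18 and 15 counts with abiraterone against 3, 5 and 6 counts with DMSO. Its log2 fold change of 1.71 had an SE of 0.57 (adjusted p = 0.0111), and the call was lost without abiraterone library B. With enzalutamide it had 1, 10 and 12 counts (log2 fold change 0.53, SE 0.62, adjusted p = 0.504).

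**Figure D5:**
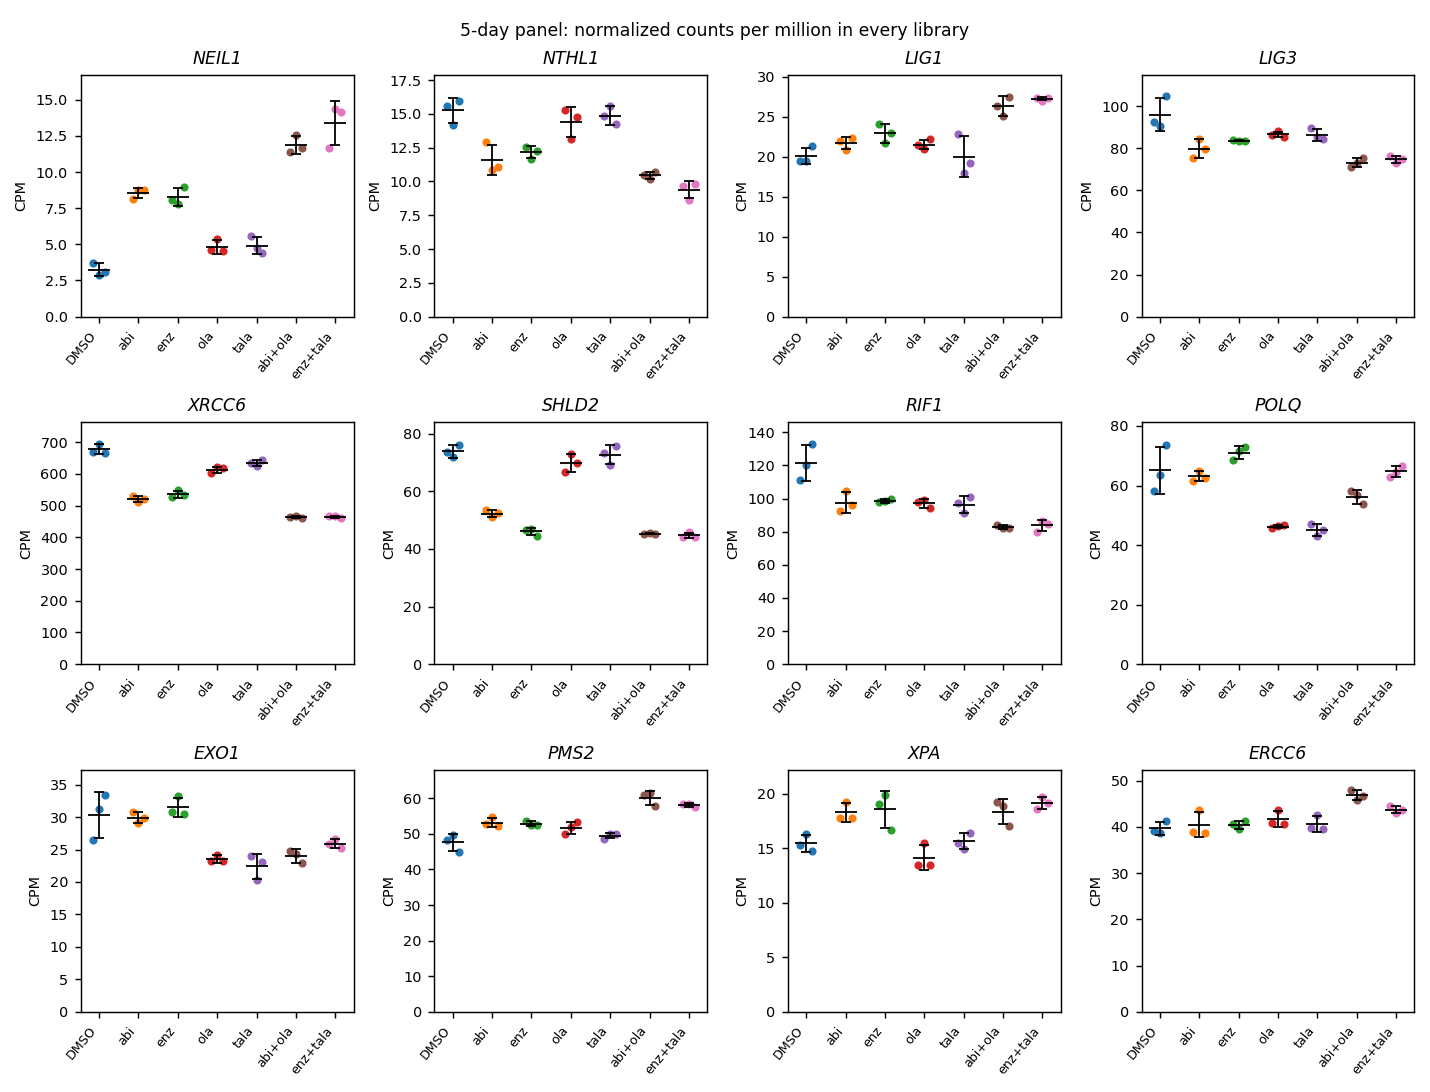
CPM in each of the 3 libraries (points), with mean and SD (black), for 12 genes in the 7 groups of the 5-day panel; each vertical axis starts at 0. NEIL1 is highest in the 2 combinations, SHLD2 and XRCC6 are lowest wherever abiraterone or enzalutamide was given, and POLQ is lowest with olaparib or talazoparib alone.

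The combinations held the most calls in the panel. With abiraterone and olaparib, 21 of the 44 genes fell (47.7%, against 31.1%) and 8 rose (18.2%, against 31.1%). With enzalutamide and talazoparib, 18 fell (40.9%, against 31.3%) and 6 rose (13.6%, against 31.2%). The proliferation list had 12 of 15 genes lower with abiraterone and olaparib (median -0.43) and 10 of 15 lower with enzalutamide and talazoparib (median -0.30), and its part was not tested. SHLD2 stood at 45.2, 45.6 and 45.1 CPM and at 43.99, 45.8 and 44.3 CPM, and XRCC6 at 464, 468 and 460 CPM and at 467, 466 and 459 CPM, all below every DMSO library. LIG1 rose, from 19.4, 19.5 and 21.3 CPM with DMSO to 26.3, 25.1 and 27.5 CPM with abiraterone and olaparib and 27.3, 27.0 and 27.3 CPM with enzalutamide and talazoparib (log2 fold changes 0.38 and 0.44, adjusted p = 3.82e-06 and 2.56e-07). ERCC6 rose from 39.1, 38.6 and 41.3 CPM to 48.0, 45.8 and 46.8 CPM and to 44.6, 43.1 and 43.6 CPM. APLF had 18, 36 and 20 counts with abiraterone and olaparib (log2 fold change 2.45, SE 0.54, adjusted p = 0.000187), and 11, 16 and 13 with enzalutamide and talazoparib (1.23, SE 0.58, adjusted p = 0.0625), which did not pass.

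Adding a PARPi to an ARPi was compared with the ARPi alone. For olaparib on abiraterone, 19 of the 44 genes differed (43.2%, against 29.2% of all genes tested), 14 lower and 5 higher. For talazoparib on enzalutamide, 17 differed (38.6%, against 34.4%), 12 lower and 5 higher. Among the genes that passed, NEIL1 had the largest rise in both, at 0.47 (SE 0.10) and 0.69 (SE 0.10) on the log2 scale. EXO1 fell by 0.32 and 0.28 and XRCC1 fell by 0.31 and 0.24. SHLD2 fell by 0.21 on the log2 scale when olaparib was added to abiraterone, and had a log2 difference of -0.04 (SE 0.04, adjusted p = 0.453) when talazoparib was added to enzalutamide. The proliferation list had 13 of 15 genes lower in the first case (median -0.37) and 12 of 15 in the second (median -0.30).

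Whether the 2 agents acted additively on the log2 scale was tested as an interaction. It passed the threshold for 4 of 44 genes for abiraterone with olaparib (9.09%, against 12.8% of all genes tested) and for 8 for enzalutamide with talazoparib (18.2%, against 12.6%). POLQ was the only gene in both sets whose call was kept with any 1 library left out, at 0.34 (SE 0.08, adjusted p = 0.0063) and 0.40 (SE 0.08, adjusted p = 0.0012). In the combinations POLQ stood at 58.0, 56.8 and 53.7 CPM and at 63.0, 64.6 and 66.7 CPM, above all 6 libraries of a PARPi alone. In the proliferation list, 5 of 15 interaction values were positive for abiraterone with olaparib (median -0.0271). For enzalutamide with talazoparib, 12 of 15 were positive (median 0.115), and the part of this list was not tested. The abiraterone and olaparib count fell to 1 or 2 without DMSO library B or C, abiraterone library A, olaparib library A or B, or combination library B. The enzalutamide and talazoparib count was between 1 and 4 without any single library other than DMSO library A.

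Olaparib at 1 µM and talazoparib at 10 nM are both PARPi but were given at different doses. Between them, 2 of the 44 genes passed the test (4.55%, against 8.36% of all genes tested): APEX1 was higher with talazoparib by 0.09 (SE 0.03) and OGG1 lower by 0.18 (SE 0.06). Both calls were lost in 5 of the 6 fits with a library left out. Leaving aside APLF, the differences ran from -0.18 to 0.28 with a median SE of 0.0525. Between enzalutamide at 20 µM and abiraterone acetate at 5 µM, 5 genes passed (11.4%, against 19.8%). NEIL3 and POLQ were higher with enzalutamide, by 0.38 (SE 0.10) and 0.17 (SE 0.06), and NHEJ1, SHLD2 and TDG were lower, by 0.27, 0.18 and 0.12 (log2 differences of -0.27, -0.18 and -0.12). SHLD2 alone kept its call with each library left out, and the count was 3 without abiraterone library C.

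A list of 45 other genes of the same pathways was set beside these members. At 5 µM and day 5, 32 of the 45 fell (71.1%, against 33.9% of all genes tested) and 7 rose (15.6%, against 34.4%), with a median log2 fold change of -0.41. The largest changes were falls of RFC4 and RFC3, subunits of the clamp loader used in gap filling, and of POLD3, a subunit of DNA polymerase delta (log2 fold changes -1.92, -1.75 and -1.88). Among the 10 further mismatch repair and resynthesis genes, 9 fell, with a median of -1.38. Of the 20 further nucleotide excision genes, 12 fell and 5 rose (median -0.26), where the members had a positive median. The 5 further non-homologous end joining genes had a median of 0.05, with 2 lower and 1 higher, where the members had a negative one. At day 1 and 5 µM, DDB2 and XPC, the damage sensors of nucleotide excision repair and known p53 targets, rose by 2.10 and 1.16 on the log2 scale (SE 0.03 each). In the panel, DDB2 rose by 0.72 with olaparib and 0.73 with talazoparib, and GTF2H2, a TFIIH subunit whose reads can be shared with duplicated copies, had the largest change of the list with either ARPi (0.42 and 0.52). Over the list, 22 genes fell with olaparib (48.9%, against 16.0% of all genes tested) and 24 with talazoparib (53.3%, against 15.4%), while 5 rose with olaparib (11.1%, against 19.6%) and 6 with talazoparib (13.3%, against 18.4%). With abiraterone 17 fell (37.8%, against 27.1%) and 6 rose (13.3%, against 25.8%), and with enzalutamide 13 fell (28.9%, against 26.3%) and 10 rose (22.2%, against 27.0%).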

How the data were processed

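Poly(A) RNA libraries of C4-2B cells were sequenced by the authors, trimmed with Trim Galore, aligned with STAR to GRCh38 and quantified with Salmon in an nf-core pipeline. The deposited table holds expected counts per gene as whole numbers, and how they were rounded is not given in the sources used here. Ensembl identifiers were matched without their version suffix to symbols of GENCODE v44 (the authors quantified against v45), and 521 of 63187 identifiers, with 0.120% of the counts, had no match. The members, gene lists and rules were chosen with earlier results of these data known.

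Panel and time course were fitted separately in edgeR 4.0.16 (TMM scaling, filterByExpr by group, robust quasi-likelihood test, no covariates), with Benjamini-Hochberg adjustment over all 18625 and 18502 genes tested and a threshold of 0.05. The procedure was tested on simulated data. CPM used TMM-scaled library sizes, and levels per kb used the canonical transcript. Any member could be named; values per library were given for the 2 members per pathway with the largest called change in the panel and the 1 in the time course, and for members that a comparison turned on, which were chosen after their values were seen. Replicates of a group differed by more than sampling noise (chi-square per degree of freedom from 2.11 to 5.63). Alternatives were RLE and total-count scaling, no filter, at least 10 counts in every library, DESeq2 1.42.0, fits of only the groups compared, a log2 fold change minimum of 0.25, a replicate block and leaving out each library. Precision is limited by 3 libraries per group and, for APLF, by counts of 36 or fewer.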

Additional observations from a re-analysis of the deposited data

Results flagged for a closer look

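Effects that differed between days or between drug backgrounds, by the test of the difference itself, are listed here with no explanation. The effect of olaparib differed between day 5 and day 1 for 29 genes at 5 µM (67.4%, against 54.9% of all genes tested). At 1 µM it differed for 16 genes (37.2%, against 29.8%). At 5 µM the log2 differences were -2.50 for EXO1, -2.19 for POLQ, -2.14 for NEIL3, -1.91 for FEN1 and -1.58 for LIG1. Among the genes chosen by the rule of the largest called change per pathway, RIF1, XRCC4, XRCC6 and LIG3 had -0.70, -0.67, -0.33 and -0.18. ERCC6 had 0.46. Genes outside that rule are not listed, and MSH6, UNG, SHLD1 and MPG had larger differences than some of those given. At 1 µM the largest among the genes of that rule were -0.60 for POLQ, -0.46 for LIG1, -0.42 for EXO1, -0.41 for NEIL3, -0.36 for XRCC4 and -0.35 for FEN1.

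The effect of olaparib with abiraterone differed from its effect alone for 4 genes (9.09%, against 12.8% of all genes tested). Of these calls, 1 was kept with any 1 library left out. The log2 differences were 0.34 for POLQ, 0.30 for DCLRE1C, -0.22 for ERCC1 and -0.19 for NEIL2. The effect of talazoparib with enzalutamide differed from its effect alone for 8 genes (18.2%, against 12.6% of all genes tested). Of these calls, 1 was kept with any 1 library left out. The log2 differences were 0.40 for POLQ, 0.37 for PRKDC, -0.34 for NTHL1, 0.26 for LIG1, -0.21 for ERCC1, 0.14 for TP53BP1, -0.11 for XRCC6 and -0.11 for APEX1. Groups held 3 libraries, so no single library was tested as lying apart from its group.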

How the results depend on the processing

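Of the 368 member values past the threshold, 367 kept their direction under all alternatives. Of the 504 not past it, 194 changed sign under at least 1 alternative. The exception among the called values was APEX1 in the difference of the 5 µM effect between days, which was -0.0428 with total-count scaling against 0.09 with TMM; the median of all genes in this comparison was -0.153 with that scaling and -0.0223 with TMM. Total-count scaling left 761 of the 872 values on the same side of the threshold, and RLE scaling 867. A minimum log2 fold change of 0.25 cut the counts to 10 for abiraterone, 10 for enzalutamide, 7 for olaparib, 9 for talazoparib, and 16 and 13 for the abiraterone and enzalutamide combinations. It cut them to 5 for each combination against its ARPi, 2 and 4 for the abiraterone and enzalutamide interactions, 0 for talazoparib against olaparib, 2 for enzalutamide against abiraterone, 2 and 12 for olaparib 1 µM at day 1 and day 5, 7 for 5 µM at day 1, 9 for the 1 µM day difference and 0 for DMSO between days. The enzalutamide and talazoparib interaction held 4 genes without the filter, with only the groups compared and with total-count scaling. Talazoparib against olaparib held 4 genes with DESeq2 and 0 without the filter. With single libraries left out, the counts ran from 1 to 5 for the abiraterone and olaparib interaction, 1 to 8 for the enzalutamide and talazoparib interaction, 3 to 6 for enzalutamide against abiraterone, 13 to 20 for olaparib and 0 to 3 for talazoparib against olaparib. For these results the cause was not tested, apart from the fewer genes a minimum fold change admits.

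Libraries with the same replicate label did not deviate together (correlations from -0.0686 to 0.0636 in the panel and from -0.133 to 0.116 in the time course). A replicate block changed the call for 10 of 872 values, 8 lost and 2 gained, and turned none. Depth limits APLF most.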

Other observations

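APLF, which was too low to test in the time course, had between 1 and 6 counts in each of its 18 libraries.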
